A study of Mus musculus with 10 samples.

Results

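The homeodomain protein Six2 holds the nephron progenitors of the embryonic kidney in an undifferentiated, self-renewing state. β-catenin, the co-activator of canonical Wnt signalling, is recruited to DNA by TCF/LEF factors. In these cells Wnt signalling starts the change from mesenchyme to the epithelium of the nephron. Sites where Six2 is found and β-catenin is not are therefore of interest as the portion of the Six2 map that lies apart from the sites called for the Wnt co-activator.

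This account covers 990 regions of the mouse genome (mm9 build) that carried a Six2 peak in both Six2 ChIP-seq libraries and a β-catenin peak in neither β-catenin library. They were chosen by the peak calls themselves: all peaks of the 4 lists that share at least 1 bp were merged into 7666 regions, and those with a peak from both Six2 lists and none from either β-catenin list were kept. Their number and the absence of β-catenin peaks are thus a description and carry no test. Of the 1349 reproducible Six2 regions, 990 were of this kind, which is 73.4% (95% exact interval 70.9 to 75.7%), and 359 overlapped a β-catenin peak. Among the 4562 Six2 regions seen in a single library, 4155 (91.1%) had no β-catenin peak.

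FACS was used to take the progenitors from E16.5 embryonic kidneys of mixed background that carried the BAC transgene Six2GFPcre, a construct that all samples share. The Six2 libraries (n = 2) came from freshly sorted cells. For the β-catenin libraries (n = 2), sorted cells were pelleted and kept for 24 h in medium with serum and 4 µM BIO, which blocks GSK3, the kinase that marks β-catenin for degradation. Antibody and culture changed together, so a missing β-catenin peak in BIO-treated cells cannot be told apart from a change of the site during culture. Whether the libraries of an antibody stem from separate sorts is not in the labels. The 4 input and 2 IgG libraries are not analysed here. Whether the deposited peaks were called against them is not given in the sources used, and no further screen for unspecific signal was made.

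Six2 replicate 1 held 5645 peaks, Six2 replicate 2 held 1622, β-catenin replicate 1 held 1873 and β-catenin replicate 2 held 1208. The lists give positions only, so the depth behind a peak is unknown. A region without a β-catenin peak is one where none was listed, and weaker binding below the unknown threshold was not detectable. Rows are not in genome order, and what orders them is not stated in the sources used here. A low row number is called a high rank, and rank means row order alone, not a measured strength of binding. Rank is also given as a percentage of the list length, with the mean over both Six2 lists called the scaled rank, since the lists differ in length. Regions are named by position, and neighbouring genes and sequences are not analysed here.

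The Six2 regions without β-catenin peaks were spread over nearly the whole length of both lists. In replicate 1 their best peaks ranged from row 1 to row 5642, with a median of 1347.5. In replicate 2 they ranged from row 1 to row 1621, with a median of 825.5. The 359 Six2 regions with a β-catenin peak lay further forward, with median rows of 520 and 446. Regions found in replicate 1 alone, without β-catenin, lay further back, at a median row of 3377.5. The median scaled rank was 40.7% (95% interval of the median 39.2 to 42.5%) without and 20.1% (17.9 to 23.6%) with a β-catenin peak.

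**Figure D1:**
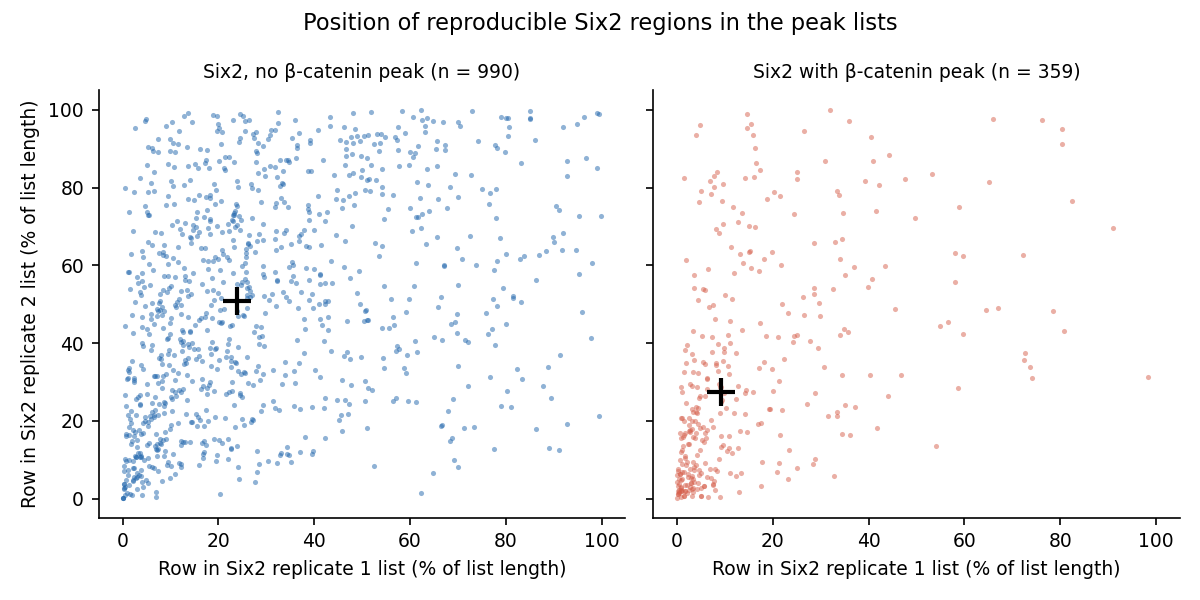
Each point is 1 reproducible Six2 region, placed by its row in the list of Six2 replicate 1 (x axis) and replicate 2 (y axis), both as a percentage of the list length, for regions without (left, n = 990) and with (right, n = 359) a β-catenin peak. The black cross is the median of each class, at 23.9% and 50.9% on the left and at 9.21% and 27.5% on the right.

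When the 1349 reproducible regions were divided into deciles by scaled rank, the share without a β-catenin peak was lowest in the leading decile. It was 40.0% there (54 of 135 regions, 31.7 to 48.8%), 55.6% in the second decile and 61.5% in the third. From the fourth to the ninth decile it stayed between 77.8% and 84.4%, and it was 93.3% (125 of 134, 87.6 to 96.9%) in the last. Most regions of the leading decile thus had a β-catenin peak, and in every later decile most had none. Because rank and class moved together, the features below were also compared within the first quartile by scaled rank, where 175 regions had no β-catenin peak and 163 had one.

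**Figure D2:**
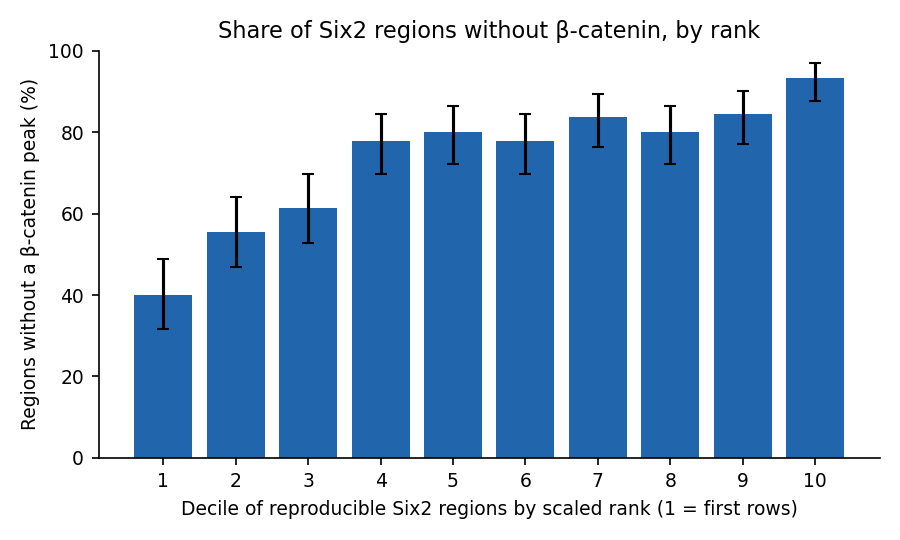
Bars give the percentage of reproducible Six2 regions without a β-catenin peak in each decile by scaled rank, from the first rows (1) to the last (10). Error bars are exact 95% intervals, and the bars go from 40.0% in the first decile to 93.3% in the last.

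Regions without β-catenin peaks were also among the first rows of both Six2 lists. They made up 3 of the first 10 rows of replicate 1 and 4 of the first 10 of replicate 2, and 41 and 36 of the first 100. Reproducible regions with a β-catenin peak made up 5 and 6 of the first 10, and 49 and 61 of the first 100. Over the whole lists, 990 regions without and 359 with β-catenin stood against 5645 rows in replicate 1 and 1622 in replicate 2. The share without β-catenin in the first 100 rows was thus above that of the whole list in replicate 1 and below it in replicate 2. The region at chrX:166412626-166413210 was row 2 in replicate 1 and row 1 in replicate 2. Its peak was 151 bp wide in replicate 1 and 585 bp in replicate 2, and the nearest β-catenin peak lay 11.8 kb away. The region at chr16:6686365-6686664 was row 1 and row 2, with peaks of 298 and 296 bp whose midpoints were 3 bp apart. No β-catenin peak lay within 202.8 kb of it, and no other Six2 region without β-catenin, of 1 library or of both, lay within 100 kb. The region at chr14:29586336-29586505 was row 9 and row 4, and its nearest β-catenin peak was 233.2 kb away. All 3 stood at the head of both lists, and the one on chromosome X was the nearest of them to a β-catenin peak.

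The next regions by scaled rank followed at a distance from these 3. At chr18:57067075-57067261 the rows were 30 and 14, at chr6:113963003-113963190 they were 50 and 23, and at chr10:42723027-42723283 they were 12 and 40. The region at chr7:57617496-57617755 was at rows 93 and 19, and the one at chr11:80631707-80631851 at rows 13 and 44. At chr7:85248444-85248654 the rows were 116 and 16, and at chr11:19862249-19862518 they were 26 and 50. The last of these, at chr11:19862249-19862518, had a β-catenin peak 38.0 kb away, and the one at chr7:57617496-57617755 had none within 821.9 kb.

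The regions in places 11 to 20 lay between scaled ranks of 2.05% and 3.62%. They were chr11:116482812-116482945 (rows 19 and 61), chr14:77098587-77098784 (23 and 63), chr6:87603933-87604181 (74 and 55), chr13:60431672-60431984 (227 and 15) and chr7:16507238-16507972 (39 and 79). The last 5 were chr5:74368700-74368910 (rows 176 and 42), chr3:19356026-19356280 (120 and 76), chr17:83603251-83603483 (128 and 74), chr19:58384516-58384721 (60 and 99) and chr3:148081110-148081375 (238 and 49). The chromosome 7 region of this set had the widest peak of the 20, 735 bp in replicate 2 against 199 bp in replicate 1, and its midpoints were 247 bp apart. It and the region at chr3:19356026-19356280 were the 2 of the 20 with no β-catenin peak within 1000000 bp. The 20 regions lay on 13 chromosomes. Within 100 kb, 6 of them had a β-catenin peak, 5 had another of the 990 regions, and 0 had a reproducible Six2 region with β-catenin. Over all 990 regions these neighbours were found for 298 (30.1%), 182 (18.4%) and 93 (9.39%, 7.65 to 11.4%).

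At the other end, the last region by scaled rank was chr7:77506452-77506701, at row 5610 of replicate 1 and row 1605 of replicate 2. It was near the end of both lists and is a member on the same terms as the leading sites.

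The Six2 libraries ranked the 990 regions, called members below, only loosely alike. Across them the row numbers had a Spearman's rho of 0.38 and a Pearson's r of 0.33. Across the 359 regions with a β-catenin peak the values were 0.60 and 0.46. These correlations are descriptions across sites of the same pair of libraries, and a smaller share of the class without β-catenin lies in the leading rows. Of the 240 members in the first 10% of replicate 1, 23 (9.58%, 6.17 to 14.0%) were in the last 25% of replicate 2. Among regions with β-catenin it was 12 of 191 (6.28%), a difference of 3.30 points whose interval (-2.07 to 8.43) includes 0. In the other direction, 0 of the 70 members in the first 10% of replicate 2 were in the last 25% of replicate 1, which allows a share of up to 4.29% by the limit of 3 counts, and 5.13% as the upper bound of the exact interval. For regions with β-catenin this count was also 0, of 89 regions.

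Of the members that led replicate 1, those furthest back in replicate 2 were chr5:139970947-139971167 (rows 281 and 1583), chr16:95694507-95694698 (270 and 1576) and chr6:99473048-99473518 (517 and 1553). Of those that led replicate 2, the furthest back in replicate 1 were chr3:55339764-55339968 (rows 3946 and 134), chr6:51120611-51121160 (3908 and 161) and chr10:68581562-68581954 (3658 and 109). These 6 were picked for that gap after their values were seen. All 6 have a peak in both libraries, and the lists place them far apart.

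The members were narrow, with widths near those of the Six2 regions that had a β-catenin peak. In replicate 1 the Six2 peak had a median width of 152 bp (147 to 159 bp) without and 166 bp (157 to 174 bp) with a β-catenin peak. In replicate 2 the medians were 206 bp (201 to 210 bp) and 212 bp (204 to 219 bp). The union of both Six2 peaks was 241 bp (234 to 246 bp) wide at the median without β-catenin and 244 bp (237 to 253 bp) with it. In replicate 1 the members had the lower median in all 4 quartiles of scaled rank, at 150 to 154 bp against 161 to 172 bp. Replicate 2 kept no such order. There the medians of members and regions with β-catenin were 205 and 205 bp in the first quartile and 198.5 and 224 bp in the second. In the third they were 206 and 209 bp, and in the last 219 and 196.5 bp. The differences of the medians were not tested.

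Replicate 2 had the wider peak at 676 of the 990 members (68.3%), and at 66.6% of the regions with β-catenin. The difference was 1.71 points, with an interval from -3.83 to 7.48. The midpoints of the Six2 peaks were 34.0 bp apart at the median (31.5 to 36.0 bp) in members and 36.5 bp (33.0 to 41.0 bp) in regions with β-catenin. At 662 members (66.9%) they were within 50 bp. At 641 members (64.7%) each Six2 peak covered at least 50% of the other, against 66.0% of the regions with β-catenin, a difference of -1.27 points (-6.87 to 4.56). For these 2 shares the interval of the difference includes 0, and a difference inside it was not detectable.

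**Figure D3:**
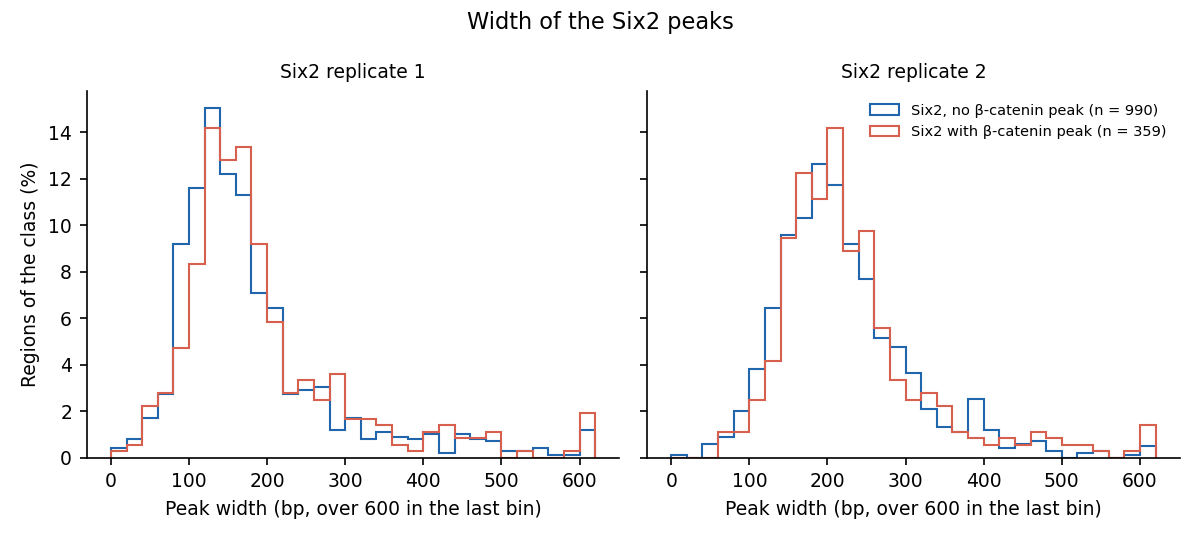
Distribution of the width of the Six2 peak in bp (x axis) as a percentage of regions in each class (y axis), in Six2 replicate 1 (left) and replicate 2 (right). Blue is for the 990 regions without and red for the 359 regions with a β-catenin peak, with medians of 152 and 166 bp in replicate 1 and of 206 and 212 bp in replicate 2.

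What lay around the sites did differ. A β-catenin peak lay within 100 kb of 298 of the 990 members (30.1%, 27.3 to 33.1%). For the 359 regions with β-catenin, a further β-catenin peak that did not overlap the region lay within 100 kb of 176 (49.0%, 43.7 to 54.3%). The difference was -18.9 percentage points (Newcombe 95% interval -24.8 to -13.0), which takes regions as independent and is no test across libraries. The classes were split by peaks of these same β-catenin lists, so the difference is a description and no independent evidence about the classes. The median distance was 257687 bp for members and 103612 bp for regions with β-catenin. Counted on β-catenin replicate 1 the shares were 24.1% and 44.6%, and on replicate 2 they were 17.9% and 28.7%. The direction was the same, but both lists had also defined the classes, so this is no independent replication.

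The gap was also there within quartiles of scaled rank, which narrow the range of rank but do not match it between the classes. In the first quartile by scaled rank, 45 of 175 members (25.7%) and 89 of 163 regions with β-catenin (54.6%) had such a peak within 100 kb, a difference of -28.9 points (-38.4 to -18.5). In the last quartile the shares were 31.7% and 45.5%. A single enriched stretch can be listed as several peaks, so peaks 10 to 100 kb away were counted as well, a choice made after seeing the data. They were found around 260 members (26.3%, 23.5 to 29.1%) and 139 regions with β-catenin (38.7%, 33.7 to 44.0%), a difference of -12.5 points (-18.2 to -6.80).

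Members were close to the Six2 sites that only replicate 1 listed in this respect. Of those 3910 regions, 1064 (27.2%, 25.8 to 28.6%) had a β-catenin peak within 100 kb. The difference from the members was 2.89 points, and its interval ran from -0.228 to 6.12. On β-catenin replicate 1 alone members had such a peak more often, 24.1% against 20.4%, a difference of 3.71 points (0.837 to 6.73). On β-catenin replicate 2 alone the shares were 17.9% and 16.2%, a difference of 1.66 points (-0.891 to 4.41).

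**Figure D4:**
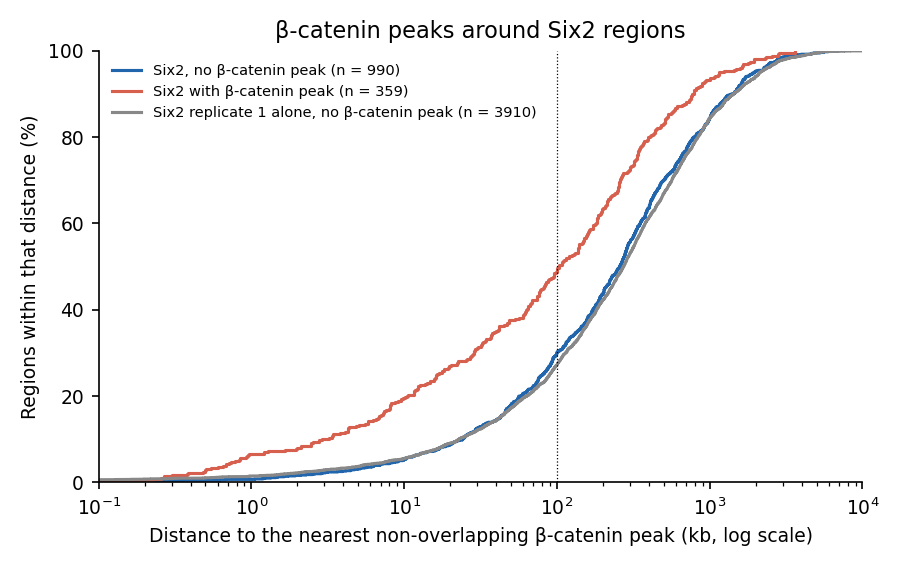
Percentage of Six2 regions (y axis) with a non-overlapping β-catenin peak within a given distance in kb (x axis, log scale), for the 990 regions without a β-catenin peak (blue), the 359 with one (red) and the 3910 regions of Six2 replicate 1 alone without one (grey). At the dotted line at 100 kb the curves stand at 30.1%, 49.0% and 27.2%.

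Few members had a β-catenin peak close by. One lay within 500 bp of 5 members (0.505%), within 1000 bp of 7 and within 10 kb of 52 (5.25%). For the Six2 regions of replicate 1 alone without β-catenin, the shares were 1.05% within 500 bp and 5.55% within 10 kb. At 10 kb the members were thus near these other Six2 sites. For regions with β-catenin, a further peak lay within 500 bp of 2.79% and within 10 kb of 19.5%. Among members, the nearest β-catenin peak was 12 bp from the region at chr5:67791972-67792188 (Six2 rows 1559 and 71). It was followed by 46 bp at chr4:94223554-94223722 (rows 4900 and 1018) and 161 bp at chr2:26758550-26758676 (rows 82 and 301). Just outside the rule were regions that shared as little as 2 bp with a β-catenin peak, at chr18:57545844-57546214 (Six2 rows 4085 and 577). A region at chr15:25439971-25440208 (rows 629 and 743) shared 6 bp, and one at chr13:90800620-90801042 (rows 735 and 26) shared 7 bp. Of the 359 regions with β-catenin, 126 had a peak from both β-catenin libraries, 210 from replicate 1 alone and 23 from replicate 2 alone. More of these regions had a peak from β-catenin replicate 1 than from replicate 2. The list of replicate 1 was also the longer, with 1873 peaks against 1208.

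Other Six2 sites were also less frequent around the members. Another reproducible Six2 region of either class lay within 100 kb of 250 members (25.3%, 22.6 to 28.1%) and of 131 regions with β-catenin (36.5%, 31.5 to 41.7%). The difference was -11.2 points (-17.0 to -5.67), and -11.5 points (-20.9 to -1.87) in the first rank quartile. Single-library Six2 regions without β-catenin lay within 100 kb of 49.6% of members and 49.3% of regions with β-catenin, a difference of 0.292 points (-5.72 to 6.30). The classes thus differed in the reproducible Six2 sites around them, and no such difference was seen for single-library sites without a β-catenin peak. Single-library sites with a β-catenin peak were not counted as neighbours, while reproducible sites with one were. The comparisons therefore also differ in the β-catenin peaks of the neighbours.

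Most members had no other member close by. With gaps of up to 50 kb, 871 of the 990 had no other member beside them, 50 pairs held 100, and 6 groups of 3 or 4 held the remaining 19. In all, 119 members (12.0%, 10.1 to 14.2%) had another within 50 kb. Of the 359 regions with β-catenin, 44 (12.3%, 9.05 to 16.1%) had another of their class within 50 kb. This share counts neighbours of the same class only, and the classes differ in size. The largest group held 4 regions over 28.9 kb at chr1:170312157-170341028. Its second region, chr1:170312968-170313192, was at row 17 of replicate 1 and row 135 of replicate 2, and the others were at rows 591 to 2805 and 905 to 1484. The second region thus had the highest rank of the 4 in both lists, and the nearest β-catenin peak was 378928 bp from the first of them.

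The 5 groups of 3 regions lay at chr12:86568308-86614683, chr2:52794983-52838884, chr6:99431687-99473518, chr7:119887206-119951240 and chr8:105871444-105933231. They spanned 41.8 to 64.0 kb. On chromosome 12 the leading region was at rows 204 and 189, and on chromosome 2 the region at chr2:52797657-52798040 was at rows 299 and 321. On chromosome 7 the first region, chr7:119887206-119887390, was at row 34 of replicate 1 and row 1297 of replicate 2, another site that the lists placed far apart. All 6 groups had 0 β-catenin peaks within 50 kb of their ends. Over all 990 members, a β-catenin peak lay within 10 kb of 5.25% and within 100 kb of 30.1%, so most members had none that near either. The 6 groups were picked by size from the same lists, and whether such groups are more frequent than the density of sites gives was not tested.

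**Figure D5:**
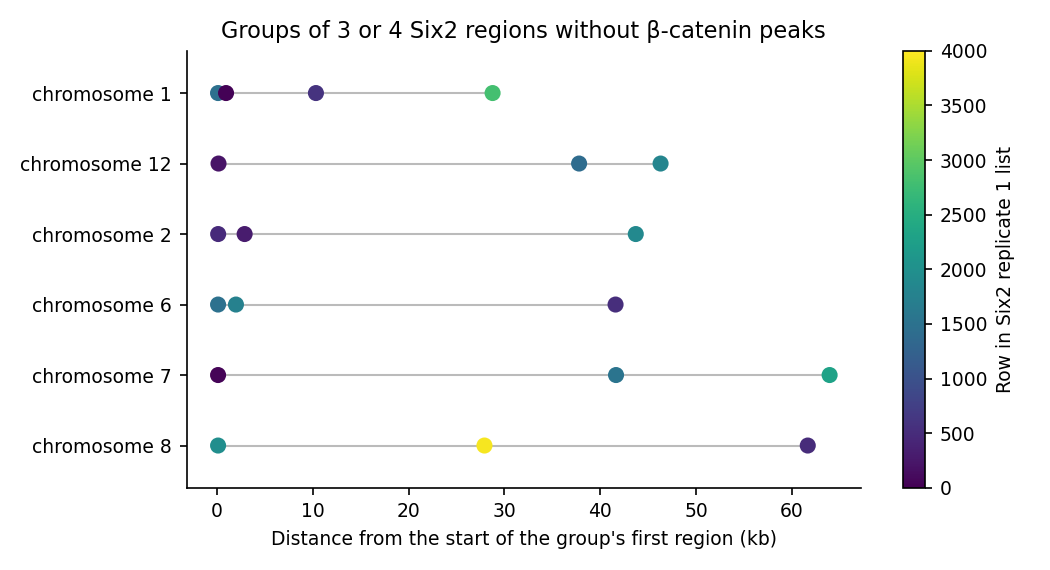
The 6 groups of 3 or 4 Six2 regions without β-catenin peaks, 1 per line by chromosome, drawn by the distance of each region in kb from the start of the group's first region (x axis). Colour gives the row in the Six2 replicate 1 list, and each group spans between 28.9 and 64.0 kb.

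Members were found on 20 chromosomes, from 5 on chromosome X to 83 on chromosome 2. The share of reproducible Six2 regions that had no β-catenin peak ran from 62.5% on chromosome 15 (30 of 48, 47.4 to 76.0%) to 90.3% on chromosome 19 (28 of 31, 74.2 to 98.0%). Chromosome 19 was the only chromosome whose interval did not hold the share of 73.4% over all chromosomes. With 20 chromosomes looked at and no adjustment, an interval that misses the overall share is no finding about that chromosome.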

How the data were processed

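The authors deposited 1 peak list per antibody library, with values that are neither counts nor signal, of a kind classed as other: 3 columns of chromosome, start and end position, without header, score or p-value. The submitters' processing notes name the mm9 build and CASAVA 1.6; for peak caller, threshold and control the sources used here give nothing. Peaks of all 4 lists sharing at least 1 bp were merged (7666 regions, the same number with bedtools 2.31.1), and row number was used as rank. Merging and distances were tested on simulated lists. A region with several peaks of a list took the first. Shares have exact (Clopper-Pearson) 95% intervals, medians binomial order-statistic intervals, and differences of shares Newcombe intervals (Python 3.11.15, scipy 1.17.1). They cover counting error only and treat regions as independent. With 2 libraries an antibody, no test across libraries was made. Replicates are numbered in accession order. The regions named are the 20 members of lowest scaled rank, those just inside and outside the rule, and others said to be picked. Members and comparisons were chosen with earlier results of these data known. The gene table used here is of another build (GRCm38), so the planned gene and motif comparisons were not run. Alternatives covered overlap, list length, chromosome X, distance windows, rank and each library left out.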

Additional observations from a re-analysis of the deposited data

How the results depend on the processing

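The number of Six2 regions without β-catenin peaks was 990, and 641 with a reciprocal overlap of 50% between the Six2 peaks and 408 with the first 50% of each Six2 list. Leaving out 1 library gave 1015 to 4914 regions, the highest without Six2 replicate 2, when every replicate 1 peak can enter. Their share of reproducible regions was 89.0% without β-catenin replicate 1. The median scaled rank of 40.7% became 38.4% with reciprocal overlap and 20.8% with the first 50% of the lists, and 38.2 to 55.4% with 1 library left out. In all of these it stayed above the median of regions with β-catenin. The median width of 241 bp became 218 bp with reciprocal overlap and 225 bp both with the first 50% of the lists and in the first rank quartile, and 144 to 243 bp with 1 library left out. The share with a β-catenin peak within 100 kb, 30.1%, became 27.2% with the first 50% of the lists, 25.7% in the first rank quartile and 26.3% for peaks 10 to 100 kb away, and 18.8 to 30.3% with 1 library left out. It was below that of regions with β-catenin in each of these. The share with another member within 50 kb, 12.0%, became 7.80% with reciprocal overlap, 5.39% with the first 50% of the lists, 3.43% in the first rank quartile and 4.14% for 10 kb, and 12.3 to 35.5% with 1 library left out. The shortened sets also hold fewer regions, and the cause of their lower shares was not tested. The classes did not keep 1 order in this share. Members were above regions with β-catenin without Six2 replicate 1 (14.3% and 12.0%), without Six2 replicate 2 (35.5% and 18.2%), without β-catenin replicate 1 (14.9% and 8.11%) and without β-catenin replicate 2 (12.3% and 11.9%). The share counts neighbours of the same class, and the classes differ in size (990 and 359 over all regions). Its order between classes therefore also depends on their size, and this part was not tested. In the first rank quartile members minus regions with β-catenin gave -5.16 points (-10.8 to -0.0225), and over all regions -0.236 points (-4.47 to 3.47). No paired analysis was possible because the labels give no replicate numbers and the lists hold no values to pair. The alternatives on gene annotation, gene lists and motifs were not run, since the gene table is of another build.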
